A study of Mus musculus with 6 samples.

Results

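Glutathione transferases were examined in 3 lines of mouse endothelial cells that were made from embryonic stem cells. The 9 genes described are Gsta3, Gsta4, Gstm1, Gstm2, Gstm5, Gstt1, Gstk1, Mgst1 and Mgst3, out of 19936 genes measured. They were chosen from the family with their signals on these same 6 arrays known, so their differences between lines are given as a description and without a test. A gene was read from the probe set annotated to its symbol alone, or from the one with the highest mean over the 6 arrays where several existed; each of the 9 had 1 such probe set.

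The lines are named by the cadherin that their labels say they express: N-cadherin (N), VE-cadherin (VE), or both (VE+N). All 3 were grown in medium with 20% serum, seeded at 50000 cells per square centimetre, kept for 72 h and then held for 18 to 20 h without serum, in medium with 1% albumin. Each line was measured on 2 whole-transcript arrays, from separate RNA extractions, and there is 1 line for each cadherin state. The sample titles call the 2 arrays of a line biological replicates. Whether a line is 1 clone, and whether the replicate extracts came from separate cultures, is not given in the sources used here. The spread between arrays is therefore taken as that between extracts of a line. Cadherin state cannot be told apart from other differences between the lines.

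Values are log2 signals, and the number of arrays limits their precision. Over all genes, replicate 1 minus replicate 2 had an SD of 0.185 to 0.244 within a line. All 10 endothelial markers examined, Pecam1 and Kdr among them, lay above the array's median gene in every line. None of 5 hepatocyte markers and none of 5 embryonic stem cell markers did. Cdh2 (N-cadherin) was highest in the N-labelled line at 7.67 ± 0.0120 (SD, n = 2), against 6.69 ± 0.0105 in the VE+N-labelled and 5.86 ± 0.0933 in the VE-labelled line. Cdh5 (VE-cadherin) did not follow the labels: its means were 7.28 (N-labelled), 6.94 (VE-labelled) and 7.10 (VE+N-labelled), and no difference passed the test. Its VE minus N difference, −0.34, did pass with median centring (−0.44, adjusted p = 0.033) and with a trended, robust variance prior (adjusted p = 0.0497), lower in the line labelled VE. The lines are therefore called by their labels, on which all directions given here depend.

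Glutathione transferases join the tripeptide glutathione to reactive, electron-poor molecules, which makes them more soluble and ready for export. The soluble enzymes fall into classes, among them alpha (Gsta), mu (Gstm), theta (Gstt), pi, omega and zeta. Gstk1 is the kappa enzyme of mitochondria and peroxisomes, and Mgst1 and Mgst3 belong to a separate family of membrane proteins. Many of these genes are known targets of NRF2 (Nfe2l2), the transcription factor that binds antioxidant response elements when its inhibitor KEAP1 lets go of it.

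The core of that element, searched as TGACNNNGC on both strands, was looked for in the 250 bases before the RefSeq gene starts. Of the 9 genes, 8 had a promoter in the table used, and 3 of the 8 held a match. The core was found in 11.5% of 27025 genes. Among the gene lists used below, its share ran from 5.26% (1 of 19 other family genes) to 31.2% (5 of 16 genes of the regulator list). Of 21 listed NRF2 targets with a promoter, 3 held it (14.3%). These shares were not tested. The stretches around the matches are shown because these genes are read against NRF2 below. Gclm, an enzyme gene of glutathione synthesis, is shown beside them. Each runs 5′ to 3′ along the gene's strand (build GRCm38.p6), with the matching bases in capitals; in Mgst1 and Gclm the core reads on the opposite strand.
Gsta3: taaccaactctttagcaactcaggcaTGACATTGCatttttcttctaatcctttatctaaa
Gstm5: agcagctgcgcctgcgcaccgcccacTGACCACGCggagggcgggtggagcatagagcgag
Mgst1: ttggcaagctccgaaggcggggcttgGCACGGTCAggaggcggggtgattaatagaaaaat
Gclm: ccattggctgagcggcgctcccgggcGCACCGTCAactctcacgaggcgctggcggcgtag

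The stretches lie at chr1:21240438-21240498 (Gsta3, plus strand), chr3:107895786-107895846 (Gstm5, plus), chr6:138140445-138140505 (Mgst1, plus) and chr3:122245397-122245457 (Gclm, plus). The near end of the core stood 113, 34, 48 and 126 bases before the start of Gsta3, Gstm5, Mgst1 and Gclm. Mgst1 has a second start in the table, without a match. These matches describe the letters of the windows and are not evidence of binding. As the values below show, the highest mean of the 3 genes with a match fell in the VE+N-labelled (Gsta3), VE-labelled (Gstm5) and N-labelled line (Mgst1). Full orders were not settled for Gstm5, whose N-labelled and VE+N-labelled arrays overlapped, or for Mgst1, whose VE-labelled arrays overlapped both other lines. Regulation by NRF2 was not tested.

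**Figure D1:**
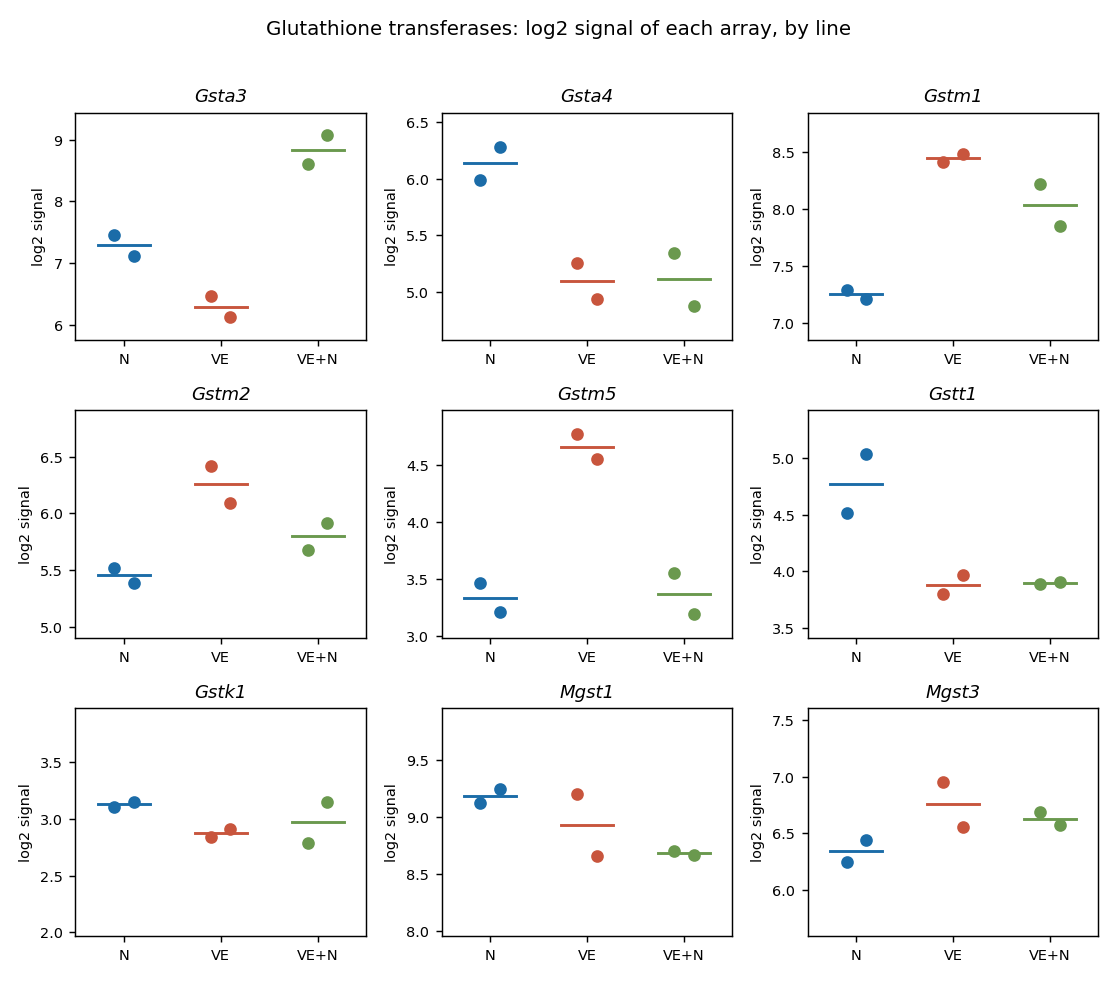
Log2 signal of the 9 glutathione transferase genes on each array, with a point for each array and a bar for the mean of the 2 arrays of a line (N, VE, VE+N); the vertical scale is set for each gene and spans at least 2 log2 units. Gsta3 is highest in the VE+N line, Gsta4 and Gstt1 in the N line, and Gstm1, Gstm2 and Gstm5 in the VE line.

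The 9 genes did not share 1 pattern. In the VE-labelled against the N-labelled line, 3 of 9 differed by over 2-fold (Gstm1 and Gstm5 higher, Gsta4 lower), beside 3.82% of all genes past that fold. In the VE+N-labelled against the N-labelled line 2 of 9 did (Gsta3 higher, Gsta4 lower), beside 4.61%, and in the VE+N-labelled against the VE-labelled line 2 of 9 (Gsta3 higher, Gstm5 lower), beside 2.53%. Nothing is read from these counts, since the genes were picked with the levels known. The median difference of the 9 was −0.25, 0.04 and −0.13 in the 3 comparisons, and the median size, whatever the sign, was 0.88, 0.50 and 0.24 against 0.15, 0.16 and 0.14 over all genes. The first 2 comparisons share the N-labelled arrays, and each line enters 2 of the 3. Leaving out 1 array at a time moved the first count between 2 and 4. Median centring and repeated quantile normalization each set the first count at 4. The second count was 1 without N replicate 2 or VE+N replicate 2, and 3 without N replicate 1.

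**Figure D2:**
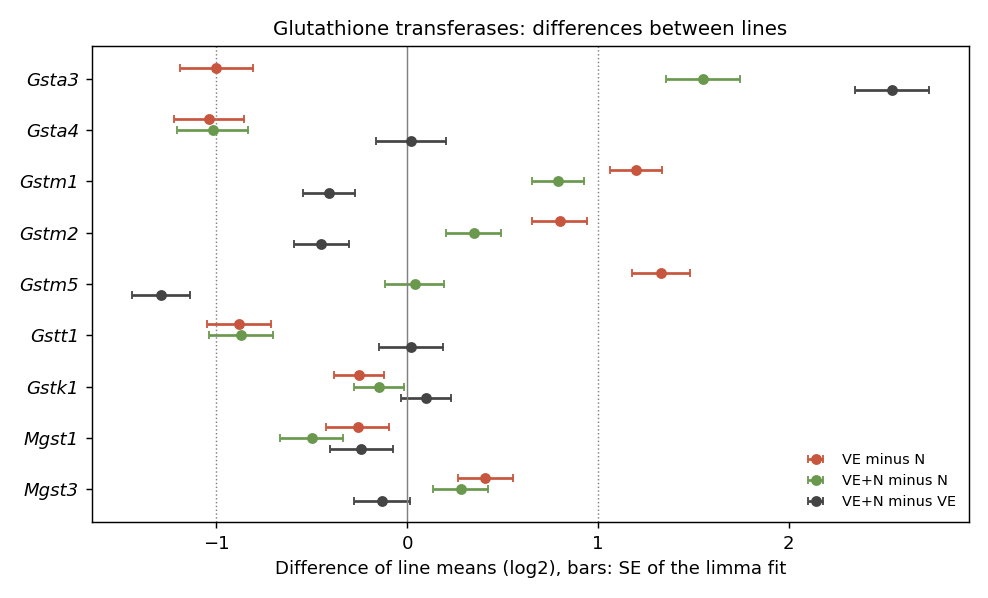
Differences of line means (log2, horizontal axis) for the 9 genes in the 3 comparisons, with the SE of the fit over all genes as bars and dotted lines at 2-fold. Gsta3 moves from −1.0 (VE minus N) to 2.54 (VE+N minus VE), and Gstk1 lies within 0.25 of no difference in all 3.

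Gsta3, an alpha enzyme, had the widest range of the 9. Its log2 signal was 7.46 and 7.12 on the N-labelled arrays, 6.47 and 6.12 on the VE-labelled arrays and 8.61 and 9.07 on the VE+N-labelled arrays. The 3 lines did not overlap, and their order was VE+N, N, VE. The VE+N-labelled line lay 2.54 ± 0.193 (SE) above the VE-labelled line, a 5.83-fold difference, and 1.55 ± 0.193 above the N-labelled line. The VE-labelled line lay 1.0 ± 0.193 below the N-labelled line, just short of 2-fold. Leaving out single arrays gave 2.31 to 2.77 for the first of these differences.

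Alpha genes other than Gsta3 and Gsta4 had no probe set of their own. After the values were seen, 4 probe sets, each annotated to the same 4 alpha class gene models at once, were looked at beside Gsta3. They too were highest on both VE+N-labelled arrays, between 7.21 and 8.03, against 5.70 to 5.94 on the N-labelled and 5.93 to 6.34 on the VE-labelled arrays. Their VE+N minus N differences ran from 1.43 to 2.08. Unlike Gsta3 they did not lie below the N-labelled arrays in the VE-labelled line, the VE minus N differences being 0.21 to 0.38. Whether these probe sets and that of Gsta3 share signal was not tested, and the 4 cannot be given to 1 gene.

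Gsta4, the alpha enzyme best known for clearing 4-hydroxynonenal, a product of lipid peroxidation, had another order. Its signal was 5.99 and 6.28 on the N-labelled, 5.26 and 4.94 on the VE-labelled and 5.35 and 4.88 on the VE+N-labelled arrays. Both N-labelled arrays were above the other 4, which overlapped. The VE minus N difference was −1.04 ± 0.184, the VE+N minus N difference −1.02 ± 0.184, and the VE+N minus VE difference 0.02 ± 0.184. The alpha genes thus differed among themselves in which line was highest.

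The mu genes Gstm1, Gstm2 and Gstm5 were higher on both VE-labelled arrays than on either N-labelled array. Gstm1, a broad detoxifying enzyme, read 7.29 and 7.21 on the N-labelled, 8.41 and 8.48 on the VE-labelled and 8.22 and 7.85 on the VE+N-labelled arrays. No lines overlapped, and the order was VE, VE+N, N, with a VE minus N difference of 1.20 ± 0.135 and a VE+N minus N difference of 0.79 ± 0.135. Gstm2 had the same order at smaller size: 5.52 and 5.39 (N), 6.42 and 6.09 (VE), 5.68 and 5.92 (VE+N). Its VE minus N difference was 0.80 ± 0.144, and again no lines overlapped. The VE+N-labelled line lay below the VE-labelled line by 0.41 ± 0.135 in Gstm1 and 0.45 ± 0.144 in Gstm2.

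Gstm5 was set apart by the VE-labelled line alone. It read 3.46 and 3.21 on the N-labelled, 4.77 and 4.55 on the VE-labelled and 3.55 and 3.19 on the VE+N-labelled arrays. The N-labelled and VE+N-labelled arrays overlapped, with a difference of 0.04 ± 0.154, while the VE-labelled line was 1.33 ± 0.154 above the first and the VE+N-labelled line was 1.29 ± 0.154 below the VE-labelled. All 6 of its values lay below the median gene of their array, so the size of these differences is approximate.

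Gstt1, the theta enzyme that acts on small halogenated compounds, was higher in the N-labelled line, at 4.51 and 5.03. It read 3.8 and 3.97 on the VE-labelled and 3.89 and 3.91 on the VE+N-labelled arrays. The 4 arrays outside the N-labelled line overlapped, and the N-labelled arrays lay above them. The differences from the N-labelled line were −0.88 ± 0.167 and −0.87 ± 0.167, and they ran from −1.15 to −0.61 with single arrays left out. The N-labelled arrays stood apart from each other (SD 0.370), and all 6 values were below the array's median gene.

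Gstk1 was dim on every array, between 2.79 and 3.15. The VE-labelled arrays, at 2.84 and 2.91, were below the N-labelled ones, at 3.10 and 3.15, by a difference of −0.25 ± 0.131. The VE+N-labelled arrays read 2.79 and 3.15 and spanned both other lines. No order of the lines was settled for this gene.

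The membrane enzymes varied least among the brighter genes. Mgst1, a detoxifying enzyme of the endoplasmic reticulum and mitochondria, read 9.12 and 9.25 on the N-labelled, 9.20 and 8.66 on the VE-labelled and 8.70 and 8.67 on the VE+N-labelled arrays. The VE+N-labelled arrays were below the N-labelled ones, by a difference of −0.50 ± 0.166, and the VE-labelled arrays overlapped both. Mgst3, which also reduces lipid hydroperoxides, read 6.25 and 6.44 (N), 6.95 and 6.56 (VE) and 6.69 and 6.57 (VE+N). Both lines labelled with VE-cadherin were above the N-labelled line, by 0.41 ± 0.146 and 0.28 ± 0.146, and they overlapped each other. The VE minus N difference of Mgst1 ran from −0.52 to 0.01 with single arrays left out, and that of Mgst3 from 0.22 to 0.61.

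The genes whose centred values on the 6 arrays came closest to each member were found by the root mean square difference in log2 units. The closest to Gsta3 were Nts at 0.309 and Prkcz at 0.359, and both were lowest in the VE-labelled and highest in the VE+N-labelled line. Those to Gsta4 were Prdm1 at 0.108 and Nos1ap at 0.122, and those to Gstt1 were Acod1 at 0.0904 and Klri1 at 0.105. For the mu genes they were Espl1 (0.0758) and H2bc18 (0.0980) with Gstm1, Cmc2 (0.0924) and Osbpl3 (0.0982) with Gstm2, and Dtx4 (0.0448) and Isl1 (0.0452) with Gstm5. For the genes of small range they were Riox2 (0.0199) and Rtl5 (0.0251) with Gstk1, Cystm1 (0.0643) and Hinfp (0.0687) with Mgst1, and M1ap (0.0459) and Skint7 (0.0512) with Mgst3. No gene matched Gsta3 as closely as the other 8 were matched. The measure rewards flat genes, and all genes share the same arrays.

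Family genes outside the 9 were tested across all 19936 genes with limma and Benjamini-Hochberg adjustment, a gene being called at adjusted p below 0.05. Since the 9 were picked with the levels known, the genes left over are no neutral sample of the family either. Of 23 listed, 18 were measured. In the VE-labelled against the N-labelled line 5 rose and 1 fell, beside 8.46% of all genes rising and 6.99% falling. In the VE+N-labelled against the N-labelled line 6 rose and 3 fell, beside 10.2% and 8.91%. Between the VE+N-labelled and VE-labelled lines 0 rose and 3 fell, beside 4.29% and 5.84%. The median difference of the 18 was 0.117, 0.00192 and −0.177, against −0.0215, −0.00443 and 0.0294 over all genes.

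**Figure D3:**
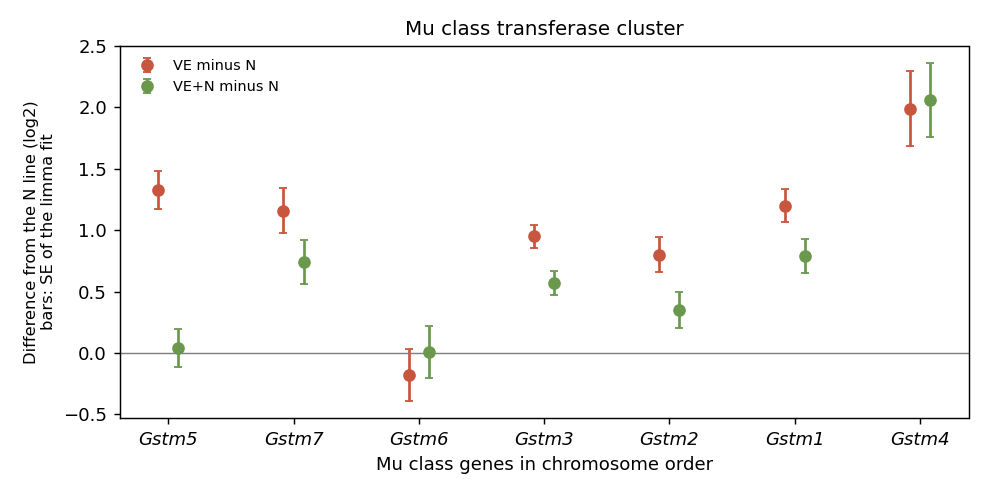
Differences from the N line (log2, vertical axis) for the 7 mu class genes in the order in which they stand on chromosome 3, with the SE of the fit as bars. Gstm6 lies near 0 in both comparisons, Gstm5 is raised in the VE comparison alone, and Gstm4 reaches 1.99 and 2.06.

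The 7 mu genes stand side by side on chromosome 3 in the order Gstm5, Gstm7, Gstm6, Gstm3, Gstm2, Gstm1 and Gstm4 (RefSeq, GRCm38.p6, used for order only). Gstm4 rose in both comparisons with the N-labelled line, by 1.99 ± 0.303 (adjusted p = 0.00324) and 2.06 ± 0.303 (adjusted p = 0.00214). Its N-labelled arrays read 3.28 and 4.42, and the other 4 between 5.80 and 5.92. Those N-labelled values were below the median gene, so the fold is approximate. Gstm7 rose by 1.16 ± 0.181 (adjusted p = 0.00365) and 0.74 ± 0.181 (adjusted p = 0.0238), and Gstm3 by 0.95 ± 0.0958 (adjusted p = 0.000396) and 0.57 ± 0.0958 (adjusted p = 0.00416). Gstm6, between them, differed by −0.18 and 0.01 and did not pass (adjusted p = 0.676 and 0.985). Gstm3 also fell from the VE-labelled to the VE+N-labelled line by 0.37 ± 0.0958 (adjusted p = 0.0469). That last call was lost in 13 of 14 alternatives, without any 1 of the 6 arrays among them. Without an array of the line outside a comparison, the fit equals that of the 4 arrays of the 2 lines compared. Here that fit gave adjusted p = 0.0983, and such alternatives are 1 check rather than several.

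A second probe set of Gstm3, with a lower mean, gave 0.63 and 0.43 against the N-labelled line. The Gstm7 rise in the VE+N-labelled line was lost without N replicate 1 (adjusted p = 0.138), VE+N replicate 1 (adjusted p = 0.1) or VE+N replicate 2 (adjusted p = 0.0953). Mu genes are close copies of each other, and how far their probe sets share signal was not tested.

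The largest change in the family was that of Hpgds, the sigma class transferase that makes prostaglandin D2. It read 3.32 and 3.74 on the N-labelled, 7.0 and 6.73 on the VE-labelled and 6.22 and 6.96 on the VE+N-labelled arrays. The rises were 3.34 ± 0.244 (adjusted p = 7.57e-05) and 3.06 ± 0.244 (adjusted p = 8.28e-05), and the VE+N-labelled and VE-labelled arrays overlapped (difference −0.28, adjusted p = 0.574). Its N-labelled values were below the median gene, so the fold is approximate.

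Among the membrane enzymes Mgst2, which can make leukotriene C4, separated the lines labelled with VE-cadherin. It read 5.67 and 5.85 (N), 6.75 and 6.88 (VE) and 5.17 and 5.28 (VE+N), with no overlap. It rose by 1.05 ± 0.113 in the VE-labelled against the N-labelled line (adjusted p = 0.00053) and fell by 0.54 ± 0.113 in the VE+N-labelled line (adjusted p = 0.0120). Between the VE+N-labelled and VE-labelled lines the difference was −1.59 ± 0.113 (adjusted p = 0.00012). The fall against the N-labelled line was lost without N replicate 2 (adjusted p = 0.101) or VE+N replicate 1 (adjusted p = 0.0504). Alox5ap, which hands arachidonic acid to 5-lipoxygenase, rose by 0.51 ± 0.143 in the VE+N-labelled line (adjusted p = 0.0428). That call was lost without N replicate 2 or either VE+N array. It was also lost in the fit of the 4 arrays of the 2 lines (adjusted p = 0.0834). Ptges passed in no comparison. Ltc4s, the leukotriene C4 synthase, did not pass either, with VE minus N and VE+N minus VE differences of 0.49 and −0.49 ± 0.143 (adjusted p = 0.0579 and 0.072). The first did pass in 4 of 14 alternatives, among them the trended, robust variance prior (adjusted p = 0.0387). The second passed in 5 of 14. Those without either N array repeat the fit of the 4 arrays of the 2 lines (adjusted p = 0.0419).

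Of the omega genes 1 changed. Gsto2, which also reduces dehydroascorbate, fell in both comparisons with the N-labelled line, by 0.65 ± 0.102 (adjusted p = 0.00367) and 1.04 ± 0.102 (adjusted p = 0.000256). Its neighbour Gsto1 differed by 0.03 and −0.08 and did not pass. Gstcd, which carries a transferase-like domain, fell by 0.96 ± 0.103 in the VE+N-labelled against the N-labelled line (adjusted p = 0.000404). It also fell by 0.60 ± 0.103 against the VE-labelled line (adjusted p = 0.00835), a call lost without VE replicate 1 (adjusted p = 0.0652) or VE replicate 2 (adjusted p = 0.0669). Gstt3 rose by 0.39 ± 0.110 in the VE+N-labelled against the N-labelled line (adjusted p = 0.0437). That call was lost without any 1 of the arrays of these lines, and in the fit of those 4 arrays alone (adjusted p = 0.0663). Gstt2, Gstt4, Gstz1 and Gstp3 passed in no comparison. Gstp1, the pi enzyme, read between 11.52 and 11.88 on all arrays and did not pass either, with differences of −0.24, −0.01 and 0.23. The first and the last passed with a trended, robust variance prior (adjusted p = 0.0274 and 0.0464).

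**Figure D4:**
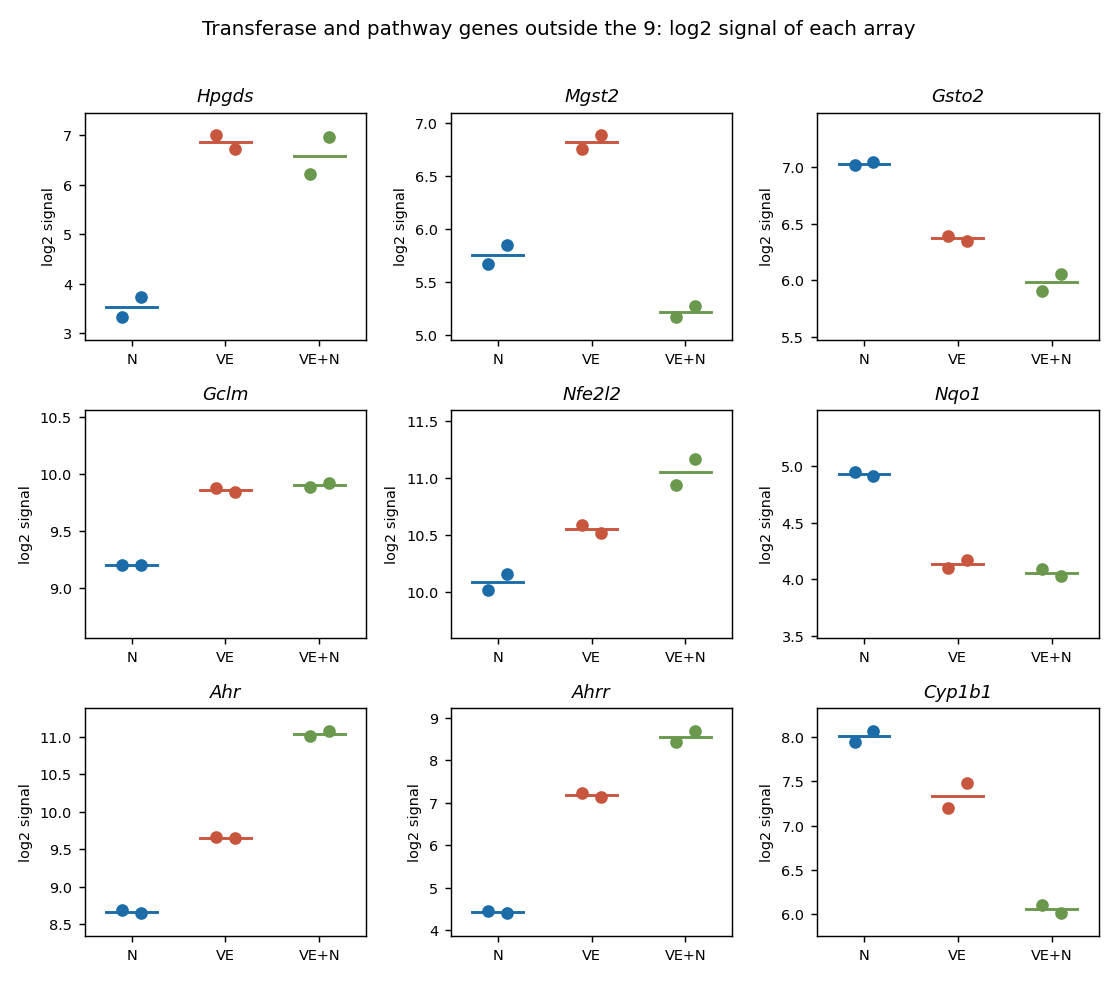
Log2 signal of 9 family and pathway genes outside the 9 described first, drawn as points for each array and bars for the mean of a line; the vertical scale differs between genes. Hpgds and Gclm are higher in both lines labelled with VE-cadherin, Nqo1 is lower in both, and Ahr and Ahrr rise from N through VE to VE+N while Cyp1b1 falls.

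The wider pathway was followed in 5 further lists drawn up by function, though with earlier results of these data known. Their shares of called genes are therefore a description, not a neutral comparison with all genes. The lists cover synthesis, recycling and transport of glutathione, peroxidases and related enzymes, NRF2 targets, regulators, and other phase II enzymes. With the family genes they held 137 genes, of which 124 were measured. Of these, 26 rose and 6 fell from the N-labelled to the VE-labelled line, 30 and 17 from the N-labelled to the VE+N-labelled line, and 12 and 13 from the VE-labelled to the VE+N-labelled line. That is 21.0% and 4.84%, 24.2% and 13.7%, and 9.68% and 10.5% of them, beside 8.46% and 6.99%, 10.2% and 8.91%, and 4.29% and 5.84% of all genes. Centring each array on its median gene lowered every VE minus N difference by 0.108, and the first split became 23 and 11. Over all genes the share of higher calls in that comparison went from 54.8% to 34.9%. The methods' analysis of variance with Benjamini-Hochberg adjustment called 17, 23 and 4 genes in place of 32, 47 and 25. Among the calls it ended were those of Gstm4 (adjusted p = 0.139 and 0.116), Gstm7, Gclc, Dpep2, Cbr3 and Sod2 in both comparisons with the N-labelled line. It also ended the steps from the VE-labelled to the VE+N-labelled line in Ahrr, Tiparp, Cyp1b1, Ephx1, Aldh1a1, Aldh2, Chac1 and Prdx4 (adjusted p = 0.0582 to 0.099), the rises of Aldh3a1 (adjusted p = 0.138) and Abcc3 (adjusted p = 0.0501) in the VE-labelled line, and that of Aldh2 (adjusted p = 0.0607) in the VE+N-labelled line.

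**Figure D5:**
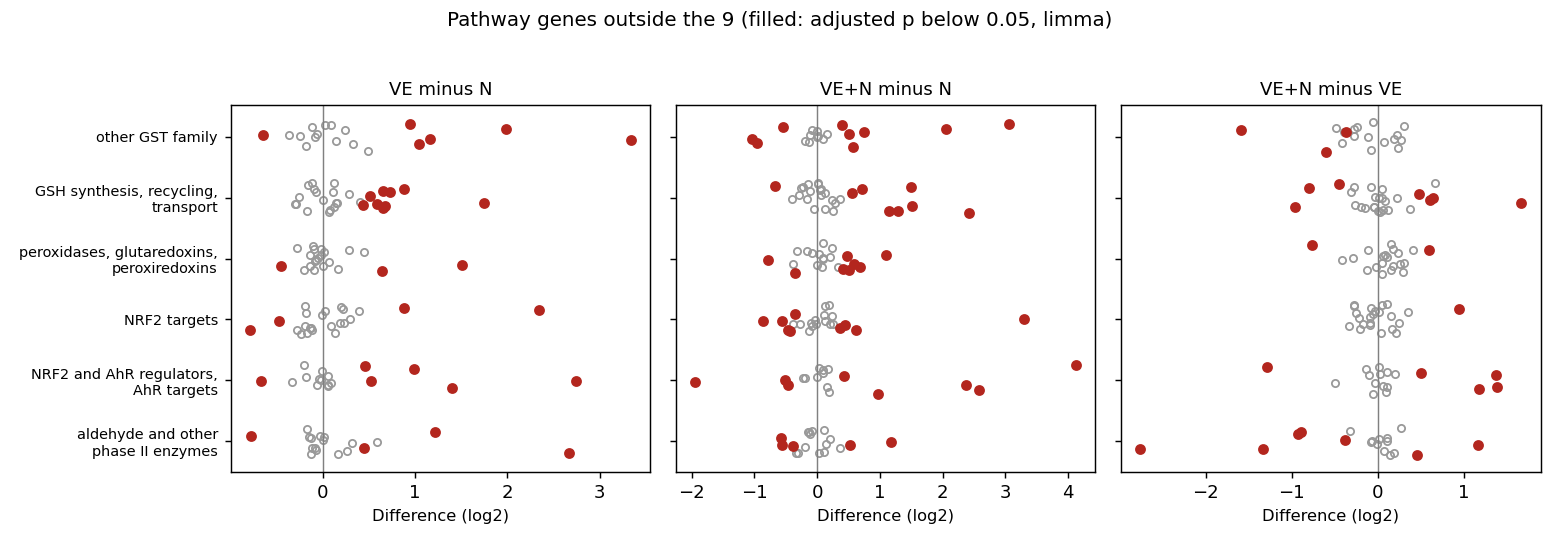
Differences (log2, horizontal axis) of the 124 family and pathway genes outside the 9, in 6 lists and 3 comparisons, with filled points for genes at adjusted p below 0.05 in limma and open points for the rest; the vertical scatter within a list has no meaning. In the VE minus N comparison 26 filled points lie to the right of 0 and 6 to the left.

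Both subunit genes of the rate-limiting enzyme of glutathione synthesis rose in the lines labelled with VE-cadherin. Of 27 synthesis, recycling and transport genes 9 rose and 0 fell in the VE-labelled against the N-labelled line, and 7 rose and 1 fell from the N-labelled to the VE+N-labelled line. The shares that rose were 33.3% and 25.9%, beside 8.46% and 10.2% of all genes, and 18 and 19 of the 27 did not pass. Gss, which completes the tripeptide, was among those, with differences of −0.11 and 0.26 (adjusted p = 0.698 and 0.244). Gclm, the regulatory subunit, read 9.20 on both N-labelled arrays, 9.88 and 9.84 on the VE-labelled and 9.89 and 9.92 on the VE+N-labelled arrays. It rose by 0.66 ± 0.0941 (adjusted p = 0.00237) and 0.71 ± 0.0941 (adjusted p = 0.00128). Gclc, the catalytic subunit, rose by 0.59 ± 0.117 (adjusted p = 0.0111) and 0.56 ± 0.117 (adjusted p = 0.0126). The Gclc rise in the VE-labelled line was lost without N replicate 1 or either VE array (adjusted p = 0.0530 to 0.0896). That in the VE+N-labelled line was lost without either N array or VE+N replicate 2 (adjusted p = 0.0510 to 0.0867).

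Some transporter genes of the list changed as well, Slc7a11 and Abcc3 among them, while Slc3a2, Abcc2 and Abcc5 passed in no comparison. Slc7a11, which brings in cystine, rose by 0.73 ± 0.147 in the VE-labelled against the N-labelled line (adjusted p = 0.0122). It was 0.96 ± 0.147 lower in the VE+N-labelled than in the VE-labelled line (adjusted p = 0.00495). Its VE+N minus N difference, −0.23 ± 0.147, did not pass (adjusted p = 0.358). The rise was lost without N replicate 2 or VE replicate 2 (adjusted p = 0.0752 and 0.106), and the VE+N against VE difference without VE replicate 2 (adjusted p = 0.0594). Abcc3, which exports conjugates, rose by 0.88 ± 0.112 (adjusted p = 0.00136) and 1.51 ± 0.112 (adjusted p = 5.73e-05) against the N-labelled line. It was also higher in the VE+N-labelled than in the VE-labelled line, by 0.64 ± 0.112 (adjusted p = 0.00972), a call lost without either VE array (adjusted p = 0.0576 and 0.0888).

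Ggct, an enzyme of glutathione breakdown, rose by 0.68 ± 0.0981 (adjusted p = 0.00243) and 1.29 ± 0.0981 (adjusted p = 6.32e-05), and the dipeptidase gene Dpep2 by 1.75 ± 0.222 (adjusted p = 0.0013) and 2.42 ± 0.222 (adjusted p = 0.000181). Ggct and Dpep2 lay below the median gene on the N-labelled and VE-labelled arrays, so these folds are approximate. Anpep, an aminopeptidase, rose in the VE+N-labelled line, by 1.5 ± 0.107 against the N-labelled line (adjusted p = 4.49e-05) and 1.67 ± 0.107 against the VE-labelled line (adjusted p = 7.96e-05). All 6 of its values lay below the median gene, so the fold is approximate. Chac1, which also degrades glutathione, was lower in the VE+N-labelled than in the VE-labelled line by 0.80 ± 0.116 (adjusted p = 0.00367). Between these lines 4 of the 27 rose (14.8%) and 3 fell (11.1%), beside 4.29% and 5.84% of all genes.

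Peroxidase and related genes changed at shares near those of all genes in the VE-labelled against the N-labelled line. Of 21 peroxidase, glutaredoxin and peroxiredoxin genes 2 rose and 1 fell there, 6 rose and 2 fell from the N-labelled to the VE+N-labelled line, and 1 rose and 1 fell between the VE+N-labelled and VE-labelled lines. The shares that rose and fell were 9.52% and 4.76%, 28.6% and 9.52%, and 4.76% and 4.76%, beside 8.46% and 6.99%, 10.2% and 8.91%, and 4.29% and 5.84% of all genes. Gpx8, a peroxidase of the endoplasmic reticulum, rose by 1.51 ± 0.117 (adjusted p = 0.000104) and 1.09 ± 0.117 (adjusted p = 0.00041) against the N-labelled line. The mitochondrial superoxide dismutase gene Sod2 rose by 0.64 ± 0.109 (adjusted p = 0.0058) and 0.69 ± 0.109 (adjusted p = 0.00309), the former lost without VE replicate 1 (adjusted p = 0.0519). Prdx4 fell in the VE+N-labelled line by 0.78 ± 0.106 (adjusted p = 0.00147) against the N-labelled and by 0.76 ± 0.106 (adjusted p = 0.00325) against the VE-labelled line. Prdx3, the mitochondrial peroxiredoxin, was 0.60 ± 0.0952 higher in the VE+N-labelled than in the VE-labelled line (adjusted p = 0.00589), a call lost without VE replicate 2 (adjusted p = 0.0574).

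Txndc12 and Sod3 of that list had calls that were lost with single arrays left out. Txndc12 fell by 0.45 ± 0.105 in the VE-labelled line (adjusted p = 0.0242), lost without either N array or VE replicate 2 (adjusted p = 0.114 to 0.155). Sod3 rose by 0.58 ± 0.123 in the VE+N-labelled against the N-labelled line (adjusted p = 0.0127), lost without N replicate 2 or VE+N replicate 2 (adjusted p = 0.0999 and 0.0674).

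The genes listed as NRF2 targets did not move 1 way. Gclc, Gclm, Slc7a11 and Abcc3 are not in this list. They were counted with the synthesis, recycling and transport genes, of which 9 rose and 0 fell in the VE-labelled line. The split below therefore depends on how genes were put into lists. Of 23 measured, 2 rose and 2 fell in the VE-labelled against the N-labelled line, 4 rose and 5 fell from the N-labelled to the VE+N-labelled line, and 1 rose between the VE+N-labelled and VE-labelled lines. The shares that rose and fell were 8.70% and 8.70%, 17.4% and 21.7%, and 4.35% and 0%, set against the same shares of all genes. Their median differences were −0.00645, −0.0200 and −0.0582. Nqo1, the quinone reductase used as the standard NRF2 readout, read 4.94 and 4.91 on the N-labelled, 4.10 and 4.17 on the VE-labelled and 4.09 and 4.03 on the VE+N-labelled arrays. It fell by 0.79 ± 0.0968 (adjusted p = 0.00111) and 0.87 ± 0.0968 (adjusted p = 0.000512), below the median gene throughout. The epoxide hydrolase gene Ephx1 went the other way, from 7.64 and 7.74 (N) to 10.08 and 9.98 (VE) and 10.89 and 11.08 (VE+N). Its rises were 2.34 ± 0.111 (adjusted p = 9.35e-06) and 3.30 ± 0.111 (adjusted p = 9.49e-07), and it was 0.95 ± 0.111 higher in the VE+N-labelled than in the VE-labelled line (adjusted p = 0.00138).

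Other genes of the NRF2 target list were called in 1 or both comparisons with the N-labelled line. The carbonyl reductase gene Cbr3 rose against the N-labelled line by 0.88 ± 0.130 (VE-labelled, adjusted p = 0.00273) and 0.62 ± 0.130 (VE+N-labelled, adjusted p = 0.0125). The second call was lost without N replicate 2 or either VE+N array (adjusted p = 0.0515 to 0.0960). Esd fell by 0.47 ± 0.0993 in the VE-labelled line (adjusted p = 0.0147), lost without any 1 of the N and VE arrays (adjusted p = 0.0532 to 0.117). Pgd, of the pentose phosphate pathway, fell by 0.56 ± 0.119 in the VE+N-labelled line (adjusted p = 0.0132), lost without either N array or VE+N replicate 1 (adjusted p = 0.0537 to 0.0761).

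Among the regulators, Nfe2l2 itself rose in order N, VE, VE+N, while Keap1 and Bach1 did not pass. It read 10.02 and 10.16, then 10.59 and 10.52, then 10.94 and 11.17. The VE+N minus N difference was 0.97 ± 0.116 (adjusted p = 0.000749). The steps from N to VE, 0.46 ± 0.116 (adjusted p = 0.0318), and from VE to VE+N, 0.50 ± 0.116 (adjusted p = 0.0317), were weaker calls. The first was lost without any 1 of the N and VE arrays (adjusted p = 0.0845 to 0.198) and with centring (0.36, adjusted p = 0.0850). The second was lost without either VE array or VE+N replicate 2. It was also lost in the fit of the 4 arrays of the 2 lines (adjusted p = 0.0502). Keap1, which holds NRF2 for degradation, differed by 0.09, 0.19 and 0.10, and Bach1, a repressor at the same elements, by 0.06, 0.09 and 0.03, none passing. Other regulators of the list were called. Bach2 rose against the N-labelled line by 0.53 ± 0.115 (VE-labelled, adjusted p = 0.0182) and 0.43 ± 0.115 (VE+N-labelled, adjusted p = 0.035). Mafk and Maff fell, with VE+N minus N differences of −0.47 ± 0.113 (adjusted p = 0.0222) and −0.52 ± 0.131 (adjusted p = 0.0269). Alternatives were not run for these genes. Of the 17 regulators and aryl hydrocarbon receptor genes, 5 rose and 1 fell, 5 rose and 3 fell, and 4 rose and 1 fell in the 3 comparisons. The shares that rose were 29.4%, 29.4% and 23.5%, beside 8.46%, 10.2% and 4.29% of all genes, and those that fell 5.88%, 17.6% and 5.88%, beside 6.99%, 8.91% and 5.84%.

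The aryl hydrocarbon receptor, a ligand-activated factor that also controls detoxifying genes, gave the largest changes of that list. Its gene Ahr read 8.69 and 8.65 (N), 9.66 and 9.65 (VE) and 11.01 and 11.08 (VE+N). It rose by 0.99 ± 0.0956 (adjusted p = 0.000315) and 2.38 ± 0.0956 (adjusted p = 2.44e-06) against the N-labelled line, and by 1.39 ± 0.0956 between the VE-labelled and VE+N-labelled lines (adjusted p = 0.000109). Its repressor Ahrr, also a target, rose by 2.75 ± 0.117 (adjusted p = 5.11e-06) and 4.13 ± 0.117 (adjusted p = 3.99e-07), from 4.45 and 4.40 to 8.43 and 8.69 in the VE+N-labelled line. Tiparp, another target, rose by 1.40 ± 0.128 (adjusted p = 0.000232) and 2.58 ± 0.128 (adjusted p = 6.14e-06). The targets Cyp1a1 and Cyp1a2 lay below the median gene on every array and passed in no comparison. The Cyp1a1 means were 3.92 (N), 3.74 (VE) and 3.69 (VE+N). From the VE-labelled to the VE+N-labelled line Ahrr and Tiparp rose by 1.38 ± 0.117 (adjusted p = 0.000293) and 1.18 ± 0.128 (adjusted p = 0.000937).

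The target Cyp1b1 ran against them. It read 7.95 and 8.07 (N), 7.20 and 7.48 (VE) and 6.10 and 6.01 (VE+N), with no overlap. It fell by 0.67 ± 0.122 in the VE-labelled line (adjusted p = 0.00785), by 1.95 ± 0.122 in the VE+N-labelled line (adjusted p = 2.11e-05) and by 1.29 ± 0.122 between them (adjusted p = 0.000512). The first of these was lost without N replicate 2 or VE replicate 1 (adjusted p = 0.0610 and 0.0619).

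Aldehyde dehydrogenases, which like Gsta4 clear reactive aldehydes, differed by gene. Of 18 aldehyde and other phase II genes 3 rose and 1 fell in the VE-labelled against the N-labelled line, 2 rose and 3 fell from the N-labelled to the VE+N-labelled line, and 2 rose and 5 fell between the VE+N-labelled and VE-labelled lines. The shares that rose were 16.7%, 11.1% and 11.1%, and those that fell 5.56%, 16.7% and 27.8%, against the same shares of all genes. Aldh3a1 read 5.42 and 5.48 (N), 8.87 and 7.37 (VE) and 5.51 and 5.19 (VE+N). It rose by 2.67 ± 0.397 in the VE-labelled line (adjusted p = 0.00287) and was 2.76 ± 0.397 lower in the VE+N-labelled than in the VE-labelled line (adjusted p = 0.00365), the latter lost without VE+N replicate 2 (adjusted p = 0.0518). Its VE-labelled arrays stood far apart. Aldh1a1, which makes retinoic acid, had the same order, with a rise of 1.22 ± 0.121 (adjusted p = 0.000351) and a VE+N minus VE difference of −1.33 ± 0.121 (adjusted p = 0.00041). It lay below the median gene on every array.

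Aldh2, the mitochondrial enzyme, rose in the VE+N-labelled line instead, by 1.18 ± 0.143 against the N-labelled (adjusted p = 0.000758) and 1.17 ± 0.143 against the VE-labelled line (adjusted p = 0.00173). Aldh7a1 fell by 0.77 ± 0.0996 in the VE-labelled line (adjusted p = 0.00143). Akr1c13 fell by 0.56 ± 0.0990 in the VE+N-labelled against the N-labelled line (adjusted p = 0.00578). Adh1 was 0.93 ± 0.183 lower in the VE+N-labelled than in the VE-labelled line (adjusted p = 0.0159), lost without either VE+N array (adjusted p = 0.0707 and 0.0964). Adh7 fell by 0.57 ± 0.144 (adjusted p = 0.0268) in the VE+N-labelled against the N-labelled line. The call was lost without N replicate 2 or either VE+N array, and in the fit of the 4 arrays of the 2 lines (adjusted p = 0.0548). The dim gene Nat2 rose by 0.45 ± 0.123 (adjusted p = 0.0458) and 0.52 ± 0.123 (adjusted p = 0.0216). The first rise was lost without any 1 of the N and VE arrays, and in the fit of those 4 arrays alone (adjusted p = 0.0565). The second was lost without N replicate 2 or either VE+N array.

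Some markers of other cell types moved with the lines too. The summed signal of 6 fibroblast or mesenchymal markers was 10.70 to 10.75 (log2) on the VE-labelled arrays, against 8.15 to 8.24 on the N-labelled and 7.54 to 7.72 on the VE+N-labelled arrays. It was thus highest in the line where Gstm1, Gstm2, Gstm5 and Mgst2 were highest. Of these 6 markers 4, 5 and 2 lay above the median gene in the N-labelled, VE-labelled and VE+N-labelled lines, with Lum below it in all 3. Of 5 leukocyte markers, Cd68 alone lay above the median gene, and Ptprc, Csf1r, Adgre1 and Itgam lay below it in every line. The summed signal of the leukocyte list was 11.58 to 11.59, 9.88 to 10.25 and 8.82 to 8.91 in the same order of lines. That sum was carried by Cd68, with means of 11.56, 9.99 and 8.68, highest in the line where Gsta4 and Gstt1 were highest. Csf1r ran the other way (4.81, 4.90 and 5.07). The line means of Ptprc, Adgre1 and Itgam lay within 0.31 of each other for each gene, highest in the N-labelled line. The list as a whole thus showed no shared shift of that size. Of 5 smooth muscle markers 1, 1 and 0 were above the median gene, with sums of 7.87 to 8.03, 7.26 to 7.50 and 6.93 to 7.05, led by Acta2 (means 7.11, 6.04 and 4.84). Of 5 epithelial markers 1, 2 and 0 were, with sums of 7.01 to 7.10, 7.34 to 7.35 and 6.80 to 7.17. The part of these genes in the transferase differences was not tested. In bulk RNA, fewer cells of a type and less RNA per cell cannot be told apart.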

How the data were processed

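RNA from 3 lines was hybridised to Affymetrix Mouse Gene 1.0 ST arrays, 2 per line, from 150 ng of RNA per the labels' protocols. The authors deposited log2 values made with RMA in Partek 6.3, per the submitters' processing notes; the log2 scale was read from their range (0.82 to 14.2). Of 35556 probe sets, 21789 carried 1 gene symbol, 1621 several and 12146 none; 1 probe set per symbol, the one with the highest mean, left 19936 genes. Symbols were updated through RefSeq tables (GRCm38.p6) by Entrez identifier (21698) or accession (3), and 88 were kept.

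Line means were fitted over all 6 arrays with limma 3.58.1 in R 4.3.3 (3 residual and 4.89 prior degrees of freedom), adjusted by Benjamini-Hochberg in each comparison, with no filter on signal. On simulated data, for VE minus N, 100% of 200 genes changed by 1 log2 unit among 19936 were recovered, with 6.54% false calls. Its noise was normal, independent between genes and drawn from variances already shrunk towards each other. Genes with a wide spread between arrays are therefore not covered. In the data, 15.4% of genes were called in that comparison. The members and lists were chosen with earlier results of these data known. Named are all 9 members, measured family genes, Nfe2l2, Keap1, Bach1, Gclc, Gclm and Nqo1, the 4 largest called differences per other list and comparison, Cdh2 and Cdh5, and the 2 closest genes per member. Gss, Cyp1a1, Cyp1a2, Bach2, Mafk, Maff, Slc3a2, Abcc2, Abcc5 and single cell type markers are named besides. Other alternatives are in the closing section. Deviations from the line means on replicate 1 correlated by −0.00504, 0.123 and 0.0689 between lines, so the replicate numbers were not taken to pair arrays.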

Additional observations from a re-analysis of the deposited data

How the results depend on the processing

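Counts of called family and pathway genes were 32, 47 and 25 (VE minus N, VE+N minus N, VE+N minus VE). The methods' analysis of variance gave 17, 23 and 4; this test takes no variance from other genes. Leaving out single arrays gave 27 to 35 in place of 47 and 13 to 23 in place of 25, and members over 2-fold in VE+N minus N numbered 1 to 3 in place of 2; fewer samples enter those fits. With the replicate number as a block, which the correlations of replicates do not bear out as a pairing, the counts were 35, 46 and 23. Over 130 differences of named genes, 1646 of 1812 alternative values stayed on their side of the threshold, 143 lost the call and 23 gained one. Fits without an array of the third line repeat that of the 4 arrays of the 2 lines compared. These values are therefore not all separate checks. No called difference changed sign, while 28 of 666 values of uncalled ones did; 43 of the lost calls came from the analysis of variance. For the 9 members, 267 of 270 values moved by less than the gene's own SD between arrays of the lines compared (root mean square). Leaving out 1 of 2 arrays cannot move a difference by more than that. The replicate block and the mean of all probe sets cannot move these differences at all. Only median centring and repeated quantile normalization could have exceeded it, so the count is not read as stability. Of the 270, 12 changed sign, in 8 differences of at most 0.26. The exceptions to the first came with median centring: 1.09 for Gstm1 and −0.36 for Gstk1 in VE minus N, and 0.10 for Gstt1 in VE+N minus VE. Centring also moved the share of higher calls among the pathway genes in VE minus N from 81.2% to 67.6%, and over all genes from 54.8% to 34.9% (VE+N minus VE, all genes: 42.3% to 60.8%). Signal over background was not analysed here, and Gstm5, Gstt1 and Gstk1 lay below the median gene on every array. Among the called genes named, so did Anpep, Sod3, Nqo1, Cbr3, Aldh1a1, Adh1, Nat2, Bach2 and Maff. The size of their differences is approximate. Ggct and Dpep2 lay below it on their N-labelled and VE-labelled arrays, and Gstm4, Hpgds, Abcc3 and Ahrr, among others, on their N-labelled arrays. Their folds are approximate as well.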
